A study of Mus musculus with 4 samples.

Results

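Collagens and the enzymes that fold, trim and crosslink them were followed through 4 expression arrays of macrophages sorted from mouse mammary glands. The set was named by gene symbol: 23 collagen chain genes and 13 genes of collagen processing, 36 in all. Of these, 35 were measured, by 58 of the 22690 probe sets, among 12393 genes on the array. The lysyl oxidase family gene Loxl2 is not counted, because its probe set also names a second gene. A gene with several probe sets (20 of the 35) is represented by the one with the highest mean over the arrays, and a further probe set is given where it bears on a value described.

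The groups were macrophages from early-stage PyMT mammary tumors (a breast cancer model made by the polyoma virus middle T oncogene) with both copies of Ets2 deleted, tumor macrophages labelled Ets2-expressing, macrophages from remodeling glands without tumor with both copies of Ets2 deleted, and wild-type remodeling macrophages. The source label of the Ets2-expressing tumor sample gives 1 copy of Ets2, so the controls of the tumor and the remodeling comparison differ in genotype. All mice expressed YFP in macrophages and the cells were sorted for it. The driver of YFP, the deleted exons, the strain and the ages are not given in the sources used here. Each group had 1 RNA sample on 1 array, so no test was run, and nothing tells how many animals a sample holds. The arrays are called deficient or expressing below, after their Ets2 labels.

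Collagens are proteins of 3 chains wound into a triple helix, built in the endoplasmic reticulum and secreted into the matrix. Prolyl and lysyl hydroxylases modify the chains and the chaperone HSP47 holds the folded helix. Outside the cell, propeptidases trim it and lysyl oxidases crosslink the fibrils. Fibroblasts are the main source of fibrillar collagen in the mammary gland, epithelium and vessels add basement membrane collagen, and macrophages are better known for taking up and degrading collagen.

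Values are log2 expression as deposited. Array medians were 6.30 (tumor, deficient), 6.22 (tumor, expressing), 5.98 (remodeling, deficient) and 6.17 (remodeling, expressing), and the 25th percentiles, taken as background, lay between 4.27 and 4.32. A gene was counted as past 2-fold where the log2 difference was at least 1 and the brighter array reached its own median. The error at hand was the spread between bright probe sets of a gene, with a pooled SD of 0.277 in the remodeling and 0.337 in the tumor Ets2 comparison. Over the 13 members with several bright probe sets, the pooled SD was 0.375 and 0.352. This spread covers neither animals nor sorting nor amplification. Among the 35 genes, 14 reached the median on all 4 arrays, 13 on some and 8 on none. Ets2 itself, with 1 probe set, read 12.67 and 12.77 on the deficient and expressing tumor arrays, and 12.97 and 13.24 on the deficient and expressing remodeling arrays. A probe set outside the deleted exons would not check the labels. Macrophage markers were level: the mean over 14 of them was 11.49 and 11.55 on the deficient and expressing tumor arrays, and 11.50 and 11.48 on the deficient and expressing remodeling arrays. For Actb, the 3' control probe set stood above the 5' one, a gap that tracks RNA integrity and amplification length, by 3.54 and 3.30 on the deficient and expressing tumor arrays, and 2.96 and 2.72 on the deficient and expressing remodeling arrays. For Gapdh the gap was 2.27 and 2.45 on the deficient and expressing tumor arrays, and 1.80 and 1.61 on the deficient and expressing remodeling arrays. The part of these gaps in the results was not tested.

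**Figure D1:**
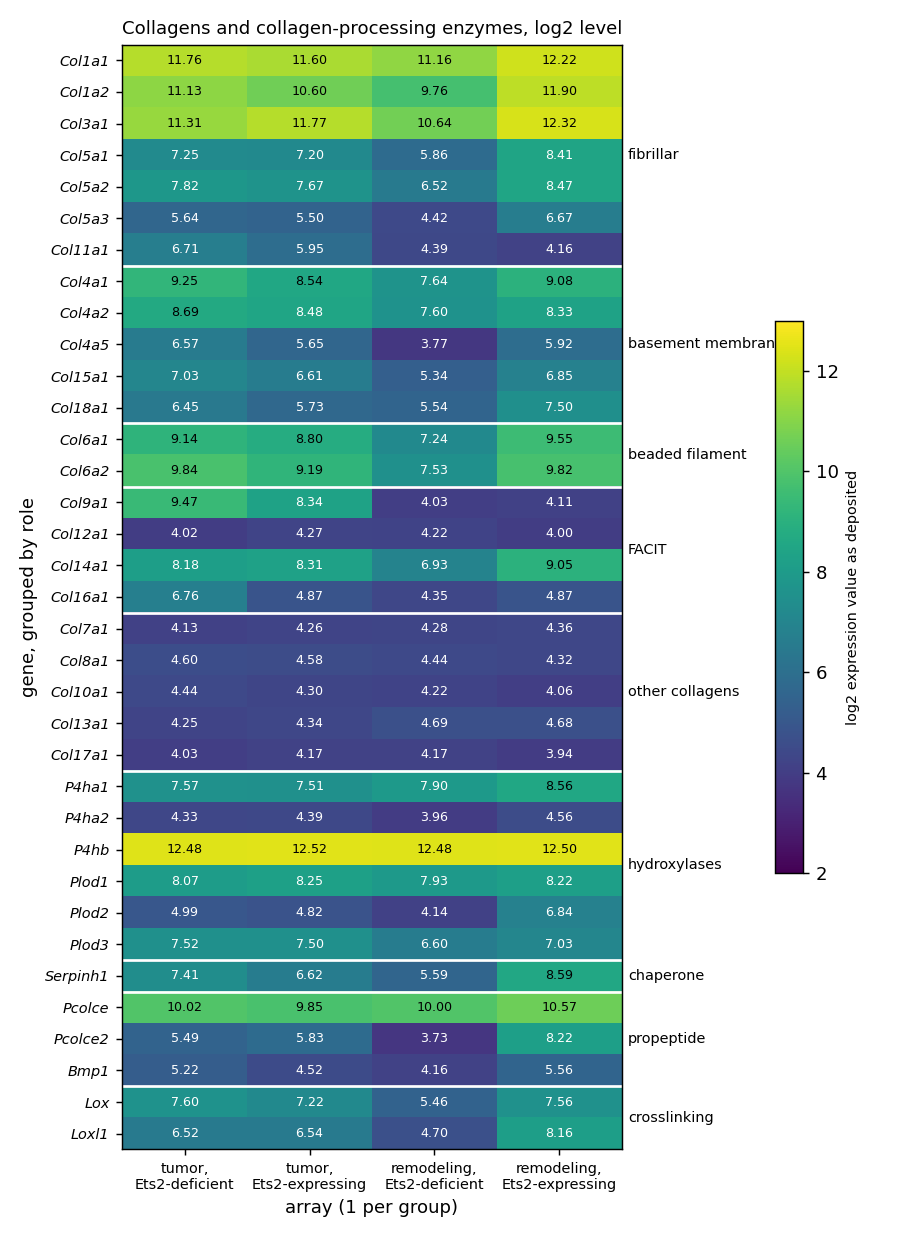
Log2 expression value of each of the 35 genes (rows, by role) on the 4 arrays (columns, 1 array per group), written in each cell and shown by colour. The remodeling deficient column is the darkest for most fibrillar, basement membrane and beaded filament collagens, whereas Col9a1 stands out on both tumor arrays at 9.47 and 8.34.

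Sequence around the annotated starts was taken from RefSeq (GRCm38.p6, 250 bases before to 50 after the start) and matched 27 of the 35 genes with 30 windows. The windows shown, chosen after values were seen, belong to genes the comparisons turn on: a type I collagen chain, the collagen chaperone and the propeptidase enhancer with large differences in remodeling macrophages, the paired type IV genes, and Col9a1, bright in tumor alone. Capitals mark 3 motifs on either strand. The motif CCAAT is the box bound by the factor NF-Y and known from fibrillar collagen promoters, GGGCGG the core of the GC box bound by Sp1, and AGGAAG holds the GGAA core read by ETS factors such as Ets2.
Col1a2, chr6:4505368-4505667, plus strand: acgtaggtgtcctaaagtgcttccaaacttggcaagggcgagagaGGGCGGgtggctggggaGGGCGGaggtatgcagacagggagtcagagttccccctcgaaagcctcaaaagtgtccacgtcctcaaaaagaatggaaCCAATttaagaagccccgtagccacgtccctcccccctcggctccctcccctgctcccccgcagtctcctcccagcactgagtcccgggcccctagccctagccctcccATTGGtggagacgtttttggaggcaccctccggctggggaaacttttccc
Serpinh1, chr7:99353190-99353489, minus strand: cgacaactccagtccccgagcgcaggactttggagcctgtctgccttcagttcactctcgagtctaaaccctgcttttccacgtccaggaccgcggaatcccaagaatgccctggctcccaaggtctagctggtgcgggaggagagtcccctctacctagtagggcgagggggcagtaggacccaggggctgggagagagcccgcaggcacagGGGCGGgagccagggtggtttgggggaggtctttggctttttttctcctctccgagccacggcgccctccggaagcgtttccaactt
Pcolce2, chr9:95637378-95637677, plus strand: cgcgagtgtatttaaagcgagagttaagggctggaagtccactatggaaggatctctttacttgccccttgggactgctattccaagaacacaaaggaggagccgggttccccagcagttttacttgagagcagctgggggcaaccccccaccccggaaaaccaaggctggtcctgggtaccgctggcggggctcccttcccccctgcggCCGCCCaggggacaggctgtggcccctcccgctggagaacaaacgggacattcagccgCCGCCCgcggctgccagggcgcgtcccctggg
Col4a1, chr8:11312777-11313076, minus strand: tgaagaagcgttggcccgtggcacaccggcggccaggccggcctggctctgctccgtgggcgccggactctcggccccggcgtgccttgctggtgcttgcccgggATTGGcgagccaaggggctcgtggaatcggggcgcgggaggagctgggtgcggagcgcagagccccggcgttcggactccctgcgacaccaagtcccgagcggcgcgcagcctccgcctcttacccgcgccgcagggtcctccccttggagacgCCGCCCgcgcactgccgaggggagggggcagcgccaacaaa
Col4a2, chr8:11312555-11312854, plus strand: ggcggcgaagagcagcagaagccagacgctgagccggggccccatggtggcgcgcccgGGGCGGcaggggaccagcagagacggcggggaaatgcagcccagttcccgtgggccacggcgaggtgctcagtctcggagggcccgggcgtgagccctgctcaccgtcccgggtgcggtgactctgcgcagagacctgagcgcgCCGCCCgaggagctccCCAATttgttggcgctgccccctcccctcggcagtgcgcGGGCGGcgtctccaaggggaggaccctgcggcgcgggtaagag
Col9a1, chr1:24177360-24177659, plus strand: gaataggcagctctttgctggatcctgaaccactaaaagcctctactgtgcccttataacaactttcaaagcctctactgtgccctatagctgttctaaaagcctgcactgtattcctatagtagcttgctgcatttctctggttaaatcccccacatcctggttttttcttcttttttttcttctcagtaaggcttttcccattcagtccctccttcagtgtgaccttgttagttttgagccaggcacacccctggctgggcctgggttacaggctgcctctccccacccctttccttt
Col9a1, chr1:24194953-24195252, plus strand: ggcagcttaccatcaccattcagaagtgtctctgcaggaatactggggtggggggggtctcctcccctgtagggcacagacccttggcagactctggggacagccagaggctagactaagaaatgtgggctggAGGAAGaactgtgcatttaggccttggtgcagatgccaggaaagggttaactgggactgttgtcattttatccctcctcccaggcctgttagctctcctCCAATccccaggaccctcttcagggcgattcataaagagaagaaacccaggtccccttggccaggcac
Col4a1 and Col4a2 lie head to head on opposite strands and their windows share 78 bases. The 2 windows of Col9a1 are separate annotated starts. The first holds none of the 3 motifs and the second holds 1 CCAAT and 1 AGGAAG. Over the 30 windows, GGGCGG was in 20 (66.7%, against 35.7% of all 32851 windows), CCAAT in 13 (43.3%, against 37.4%) and AGGAAG in 8 (26.7%, against 35.4%). Of the 13 windows of genes past 2-fold lower on the deficient remodeling array, 9 held GGGCGG, 5 AGGAAG and 4 CCAAT. Of the 17 windows of the other genes, 11 held GGGCGG, 3 AGGAAG and 9 CCAAT. The 8 genes without a window include Col1a1, Col5a2, Col14a1, Plod2, Lox and Loxl1, all past 2-fold lower on that array. The bases shared by Col4a1 and Col4a2 hold a GGGCGG site. It counts for Col4a1 among the lower genes and for Col4a2 among the others. Whether the motif counts differ between these groups was not tested. A match is a run of letters, not a bound site.

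In remodeling macrophages, collagens and their processing enzymes were lower on the deficient array in most roles. Of the 35 genes, 17 were past 2-fold lower and 0 higher, against 2.96% of all 12393 genes lower and 0.75% higher (5.17% and 1.31% of the 7095 genes bright enough). Their median difference was -1.40 log2, with 0.04 over all genes, and 29 of the 35 lay below 0, against 43.0% of all genes. The share of higher genes among all genes past 2-fold was 20.2%, and 39.5% after centring each array on its median, but 0 of these 35 were higher under either. Where the filter was the 75th percentile of the brighter array, 7 of the 35 were past 2-fold lower and 0 higher, against 1.05% of all genes lower and 0.169% higher. In sorted samples, fewer cells of a type and less RNA per cell cannot be told apart.

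The fibrillar collagens, which form the rope-like fibrils of interstitial matrix, were lower in 6 of 7 cases (median -1.95). Col1a2, the second chain of type I collagen, read 9.76 on the deficient and 11.90 on the expressing remodeling array, a difference of -2.14, and its other probe set gave -2.26. Both tumor arrays lay in between, at 11.13 (deficient) and 10.60 (expressing). Col1a1, the first chain of type I, differed by -1.06 in the probe set used (11.16 against 12.22) and by -2.62 in its dimmer one (8.14 against 10.76). After centring on array medians the brighter Col1a1 probe set stood at -0.86, short of 2-fold. Col3a1, the type III chain abundant in loose connective tissue, was at 10.64 against 12.32 (-1.67). The type V chains, which seed fibrils and set their diameter, had some of the largest differences of this group. Col5a1 was at 5.86 on the deficient and 8.41 on the expressing array (-2.55), Col5a2 at 6.52 and 8.47 (-1.95), and Col5a3 at 4.42 and 6.67 (-2.25). A second Col5a3 probe set near background differed by -0.14. The chains of types I, III and V thus lay lower on the deficient array in every probe set, with sizes that varied between probe sets of 1 gene by as much as between genes. Col11a1, a fibril-seeding chain best known from cartilage, was near background on both remodeling arrays (4.39 and 4.16).

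Basement membrane collagens followed with 3 of 5 past 2-fold lower (median -1.51). Col4a1, a chain of the type IV network under epithelium and endothelium, read 7.64 on the deficient and 9.08 on the expressing array (-1.44). Its head-to-head neighbour Col4a2 read 7.60 and 8.33 and differed by -0.73, short of 2-fold. Col4a5, another type IV chain, was too dim to count, with -2.16 and -2.03 in its 2 probe sets. Col15a1 and Col18a1 encode multiplexins of basement membrane zones, and endostatin is cut from the product of Col18a1. Col15a1 was at 5.34 against 6.85 (-1.51) and Col18a1 at 5.54 against 7.50 (-1.95). Every basement membrane chain was below 0, and the largest counted was Col18a1.

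The 2 beaded filament genes moved by almost the same amount. Col6a1 read 7.24 on the deficient and 9.55 on the expressing array (-2.31), and Col6a2, its partner chain, 7.53 and 9.82 (-2.29). Their difference from each other was smaller than the pooled SD between probe sets. Col6a3, the third chain of the common type VI filament and not a member of the set, was at 8.13 against 9.49 (-1.35). Col14a1, a FACIT collagen that coats fibrils, was lower as well, at 6.93 against 9.05 (-2.12). Among the other FACIT genes, Col16a1 (-0.52), Col9a1 (-0.08) and Col12a1 (0.22) were not bright on either remodeling array.

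Processing genes differed widely in size, also between genes of 1 function. Serpinh1, which encodes HSP47, read 5.59 on the deficient and 8.59 on the expressing remodeling array, 7.96-fold lower, and its other probe set gave -3.06. Loxl1, a lysyl oxidase that crosslinks elastin and collagen, was 11.00-fold lower (4.70 against 8.16), and Lox, the founding member, 4.30-fold (5.46 against 7.56). Of the other Lox probe sets, a bright one gave -1.98 and one below background on all 4 arrays gave -0.41. Pcolce2, an enhancer of procollagen C-proteinase, had the largest difference of the set: 3.73 on the deficient array, below background, and 8.22 on the expressing one. With the lower value set to that array's 25th percentile, the Pcolce2 difference was -3.93 rather than -4.49. Plod2, the lysyl hydroxylase of the telopeptides, was at 4.14, also below background, against 6.84 (-2.70), and its second, dim probe set gave -0.80.

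Other processing genes stayed closer to level. P4hb, the beta subunit of prolyl 4-hydroxylase and also a general protein disulfide isomerase, read 12.48 and 12.50 (-0.02). Plod1 and Plod3, the other lysyl hydroxylases, differed by -0.28 and -0.43. The catalytic prolyl hydroxylase subunit gene P4ha1 differed by -0.66, and P4ha2, near background, by -0.60. Pcolce, the close relative of Pcolce2, read 10.00 against 10.57 (-0.57). Bmp1, the C-proteinase itself, had a difference of -1.40 but was below the median on both arrays, and its other 2 probe sets gave -0.10 and 0.05. All 12 measured processing genes lay below 0, against 43.0% of all genes, and 5 of them passed 2-fold, against 2.96% of all genes.

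**Figure D2:**
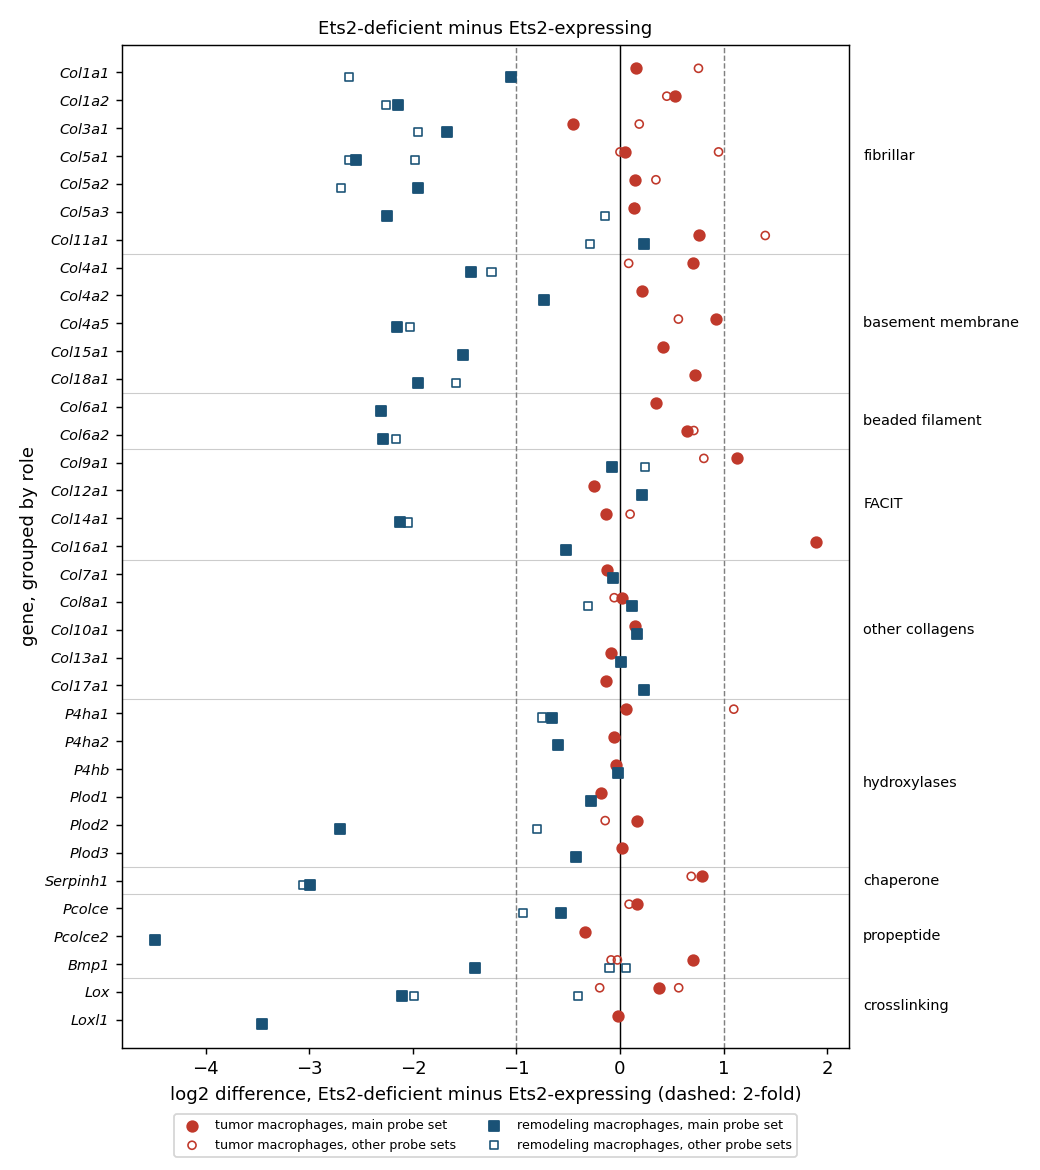
Log2 difference, Ets2-deficient minus Ets2-expressing, of each gene (rows, by role) in tumor macrophages (circles) and remodeling macrophages (squares), filled for the probe set used and open for the others, with 1 array per group and dashed lines at 2-fold. Filled squares of 17 counted genes lie left of the lower line, whereas filled circles lie between -0.46 and 1.89.

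Markers of some other cells moved on the same pair of arrays. Of 15 fibroblast markers that are not collagens, 11 were past 2-fold lower on the deficient remodeling array and 0 higher. The mean of that list was 6.94 there, against 8.75 on the expressing remodeling array, and 7.54 and 7.51 on the deficient and expressing tumor arrays. The log2 of their summed linear signal was 11.83 against 13.94 in remodeling, and 12.27 against 12.29 in tumor. Pdgfra, a receptor that marks fibroblasts, read 8.19 against 10.39, and Islr, Mfap5, Dcn and Fap differed by -4.43, -3.03, -2.61 and -2.61. Tcf21 was the marker below background on all 4 arrays. Mast cell markers were lower in 4 of 6 cases (mean 5.00 against 6.95), with Fcer1a below background on every array. Of 8 mural markers, 2 were past 2-fold lower (Pdgfrb -2.29 and Acta2 -1.05). The same held for Tek (-2.76) alone of 10 endothelial markers, with Pecam1, Cdh5 and Kdr below the median on every array, and for Krt19 (-1.54) and Krt18 (-1.51) of 10 luminal markers. The median difference was -0.05 over the mural list and -0.05 over the endothelial list. Of 14 macrophage markers, 0 passed 2-fold. Nor did any of 6 basal epithelial (median 0.11), 4 adipocyte (median 0.19) or 3 Schwann cell markers (median -0.35). The part of these cell types in the collagen differences was not tested.

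**Figure D3:**
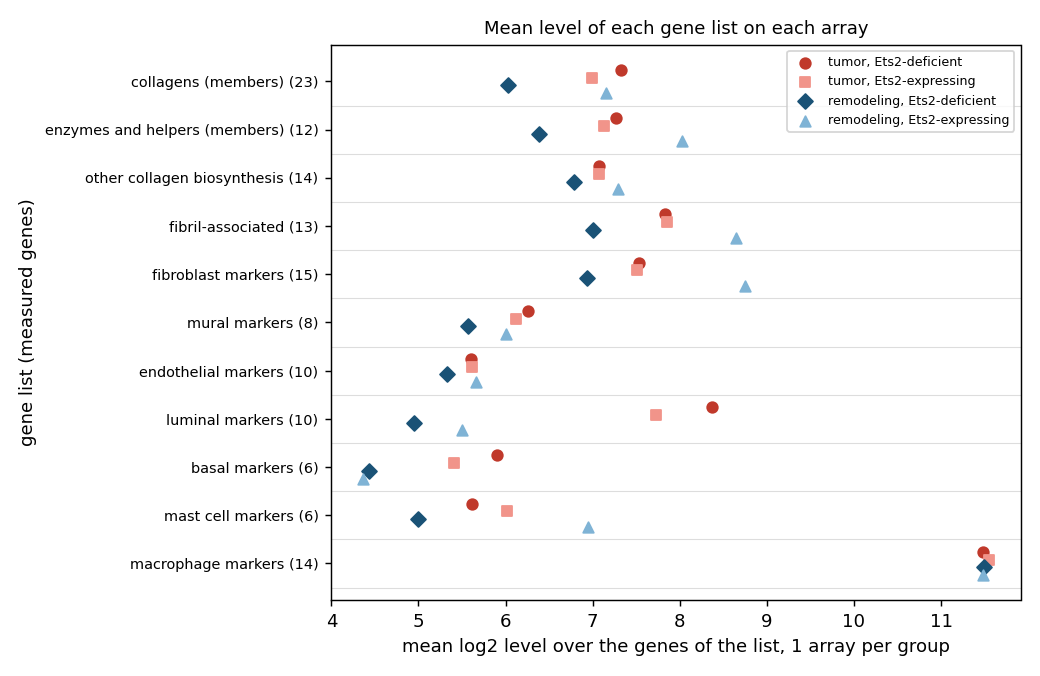
Mean log2 level over the measured genes of each list (number in brackets) on each array, 1 array per group. The fibroblast, fibril-associated and collagen lists are lowest on the remodeling deficient array, luminal markers are highest on the tumor arrays, and macrophage markers lie between 11.48 and 11.55 on all 4.

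In tumor macrophages the collagens did not share that pattern. Only Col9a1 and Col16a1 of the 35 were past 2-fold higher on the deficient array and 0 were lower, against 1.30% of all genes higher and 0.444% lower. The median difference was 0.15 log2, with 0 over all genes, and 24 lay above 0, against 49.8% of all genes. At 1.5-fold, 8 of the 35 were higher and 0 lower, against 5.41% of all genes higher and 3.49% lower. With the 75th percentile as the filter 1 was past 2-fold higher and 0 lower, against 0.395% and 0.105% of all genes. Of all genes past 2-fold, 74.5% were higher, 58.1% after median centring and 59.6% after quantile normalization.

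Col16a1, a FACIT collagen found along fibrils and near basement membranes, read 6.76 on the deficient tumor array, against 4.87 on the expressing one (1.89). It read 4.35 and 4.87 on the deficient and expressing remodeling arrays, so it reached the median on 1 array of the 4. It has 1 probe set, and its values on the 2 expressing arrays were equal to 3 decimals. Col9a1, a chain of type IX collagen that decorates cartilage fibrils, read 9.47 on the deficient and 8.34 on the expressing tumor array (1.13). Its second probe set was dim and differed by 0.81, and with the median over both probe sets the difference was 0.97, short of 2-fold.

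The other members lay closer to 0 in tumor macrophages. Of the fibrillar genes, Col1a2 (0.53), Col1a1 (0.15), Col5a2 (0.15), Col5a3 (0.14) and Col5a1 (0.05) lay above 0 and Col3a1 (-0.46) below. Other bright probe sets gave 0.76 for Col1a1, 0.95 for Col5a1 and 0.19, the opposite sign, for Col3a1. All 5 basement membrane chains were above 0, from 0.22 for Col4a2 to 0.92 for Col4a5, with Col4a1 at 0.70. The other Col4a1 probe set, also bright, gave 0.08. Col6a1 and Col6a2 differed by 0.35 and 0.65. Serpinh1 differed by 0.79 (7.41 against 6.62) and Col11a1 by 0.76 (6.71 against 5.95). Loxl1 (-0.02), Plod2 (0.16) and Pcolce2 (-0.34), among the genes with the largest remodeling differences, were within 0.35 of 0. P4ha1 differed by 0.06 in the probe set used and by 1.10 in its other one (7.13 against 6.03).

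Fibroblast markers were level between the tumor arrays, with 0 of 15 past 2-fold and a median difference of -0.03. Luminal epithelial markers were all above 0 (10 of 10, median 0.76, mean 8.37 on the deficient and 7.73 on the expressing array), and Elf5, an ETS family regulator of alveolar cells, passed 2-fold (1.22). Among 6 basal markers the mean was 5.91 against 5.41 and 0 were counted past 2-fold, Krt17 (1.48) being too dim. Sox10, a transcription factor of Schwann cells and of some mammary epithelial cells, was at 9.66 against 8.52 (1.14). The other measured Schwann cell genes, Mbp (0.29) and S100b (0.30), stayed short of 2-fold. Their part in the Col9a1 and Col16a1 differences was not tested.

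Between tumor and remodeling macrophages, the direction depended on the Ets2 label. On the deficient arrays 16 of the 35 were past 2-fold higher in tumor and 0 lower, against 4.42% of all genes higher and 0.936% lower (median 1.09, with 0.01 over all genes). On the expressing arrays 9 were past 2-fold lower in tumor and 1 higher, against 3.04% of all genes lower and 3.61% higher (median -0.54, with 0.08 over all genes). With the 75th percentile as the filter, 5 were past 2-fold higher in tumor on the deficient arrays, against 1.24% of all genes. On the expressing arrays 1 was then lower, against 1.36% of all genes. These comparisons use the same 4 arrays as those above, so they restate the same values from the other side. Of all genes past 2-fold on the deficient arrays, 82.5% were higher, but 50.8% after median centring and 61.3% after centring on hybridization controls. Of the 35 genes, 13 and 15 were then past 2-fold higher and 0 lower, with Col4a2 short of 2-fold in both (0.77 and 0.87). Of all genes, 3.19% were then higher and 3.08% lower after median centring. After centring on hybridization controls the shares were 3.48% and 2.19%.

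The remodeling deficient array was the lowest of the 4 for 25 of the 35 genes (71.4%, against 21.8% of all genes). The remodeling expressing array was the highest for 18 (51.4%, against 22.0%) and the tumor deficient array for 12 (34.3%, against 30.0%). Serpinh1, Loxl1, Col1a2 and Col5a1 were past 2-fold lower in tumor on the expressing arrays and past 2-fold higher in tumor on the deficient arrays. For Serpinh1 these differences were 1.82 (deficient) and -1.97 (expressing), and for Loxl1 1.82 and -1.61. Both tumor arrays therefore lay between the 2 remodeling arrays for these 4 genes. The same order held for further members, among them Pcolce2, Plod2, Col5a2 and Col5a3. A further Col5a1 probe set did not show this order. It read 4.76 on both tumor arrays and the deficient remodeling array, and 6.74 on the expressing remodeling array. Pcolce2 and Plod2 were past 2-fold lower in tumor on the expressing arrays (-2.39 and -2.02). On the deficient arrays Pcolce2 (1.755) was too dim to count and Plod2 (0.84) was short of 2-fold. The dim other probe set of Plod2 gave 0.17 on the deficient and -0.49 on the expressing arrays. A second pattern was tumor levels near the remodeling expressing array. Lox read 7.60 on the deficient tumor and 5.46 on the deficient remodeling array (2.14), and 7.22 and 7.56 on the expressing ones (-0.34). Col6a2 (9.84 against 7.53), Col4a1 (9.25 against 7.64) and Col15a1 (7.03 against 5.34) were likewise past 2-fold higher in tumor on the deficient arrays. On the expressing arrays their differences were -0.63, -0.54 and -0.24. The other Col4a1 probe set gave 0.98 on the deficient arrays, short of 2-fold, and -0.34 on the expressing ones. Several genes had probe sets on different sides of 2-fold in at least 1 of these comparisons. Among them were Col1a1, Col3a1, Col4a1, Col5a1, Col5a2, Col18a1, Plod2 and Pcolce. On the expressing arrays Col5a2 differed by -0.81 in the probe set used and -1.45 in its other one, and Pcolce by -0.72 and -1.05. Col18a1 differed by 0.91 and 1.06 on the deficient arrays. Col1a1 differed by 0.59 on the deficient and -0.62 on the expressing arrays in the probe set used, and by 1.63 and -1.74 in its dimmer one. Col3a1 differed by 0.67 and -0.55 in the probe set used, and by 0.48 and -1.65 in its other one. Both tumor arrays also lay between the 2 remodeling arrays for Col18a1, but below both of them for P4ha1. Col18a1 read 6.45 on the deficient tumor and 5.54 on the deficient remodeling array, and 5.73 and 7.50 on the expressing ones (-1.76). P4ha1 read 7.57 on the deficient tumor and 7.90 on the deficient remodeling array, and 7.51 and 8.56 on the expressing ones (-1.05).

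Col9a1 was the 1 member bright on both tumor arrays and near background on both remodeling arrays. It read 9.47 in tumor and 4.03 in remodeling macrophages on the deficient arrays, and 8.34 in tumor and 4.11 in remodeling macrophages on the expressing arrays. The differences were 5.44 on the deficient and 4.23 on the expressing arrays, and 5.18 and 4.07 with the dim values set to the 25th percentile. Its second probe set did not show it (0.79 and 0.22) and stayed at or below 5.00 everywhere. Col9a3, a partner chain of type IX collagen outside the set, read 7.30 in tumor and 3.64 in remodeling macrophages on the deficient arrays (3.66), and 6.45 and 3.94 on the expressing ones (2.52). Col9a2, the remaining chain, was bright on no array, with values from 3.98 to 5.01. Col11a1 was at 6.71 in tumor and 4.39 in remodeling on the deficient arrays, past 2-fold (2.32). On the expressing arrays it was too dim to count (5.95 in tumor and 4.16 in remodeling).

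Markers of other cells differed in the same comparisons. Luminal markers were past 2-fold higher in tumor in 8 of 10 cases on the deficient and 7 of 10 on the expressing arrays, led by Krt8 (5.98 and 4.67). Basal markers were higher in 3 and 2 of 6, among them Krt14 (2.98 and 2.32), and Sox10 differed by 5.65 and 3.30. The other measured Schwann cell genes did not follow Sox10: Mbp differed by -0.07 and -0.10, and S100b by 0.11 and -0.53. Fibroblast markers were past 2-fold higher in tumor in 4 of 15 on the deficient arrays (median 0.28), and lower in 11 of 15 on the expressing arrays (median -1.58). Mast cell markers were lower in 4 of 6 on the expressing arrays. Whether these cells account for any of the collagen signal was not tested.

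**Figure D4:**
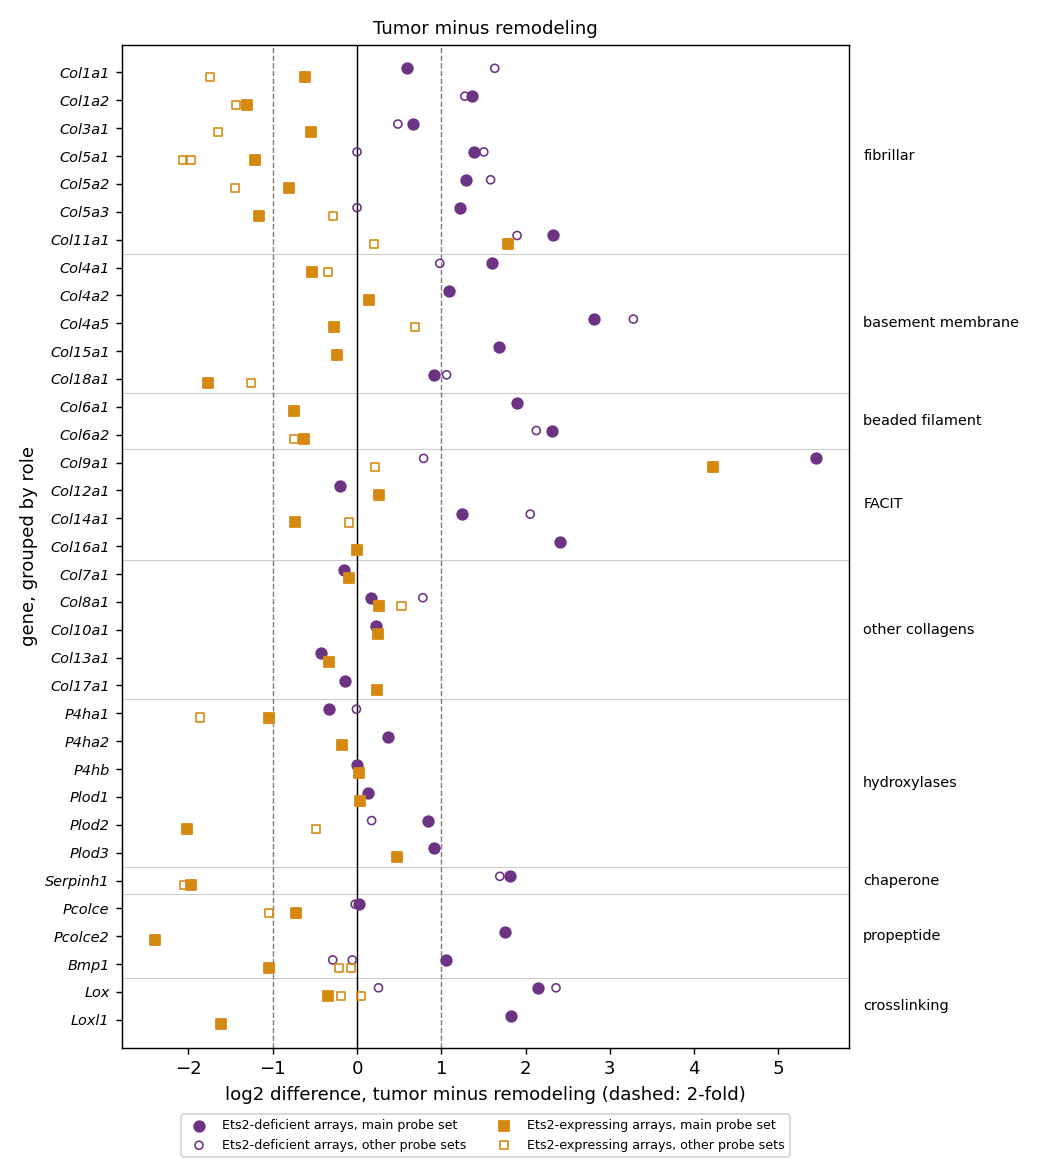
Log2 difference, tumor minus remodeling, of each gene (rows, by role) on the Ets2-deficient arrays (circles) and the Ets2-expressing arrays (squares), filled for the probe set used and open for the others, with 1 array per group and dashed lines at 2-fold. Circles lie right of the upper line for 16 counted genes and squares left of the lower line for 9, and Col9a1 lies farthest right in both.

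The Ets2 difference in tumor minus that in remodeling macrophages was at least 1 log2, with at least 1 of the 4 arrays at its median, in the higher direction for 20 of the 35 genes and in the lower for 0, against 5.12% of all genes higher and 1.78% lower. Its median was 1.93, with -0.03 over all genes. It was 4.15 for Pcolce2, 3.78 for Serpinh1, 3.44 for Loxl1, 2.94 for Col6a2 and 2.86 for Plod2. The dim other probe set of Plod2 had Ets2 differences of -0.14 in tumor and -0.80 in remodeling macrophages. Bmp1 (2.10) was too dim to count. For P4hb it was -0.02 and for Plod1 0.10. Most of it came from the remodeling side, where the median was -1.40, and not from the tumor side, where it was 0.15. The tumor control carried 1 copy of Ets2 by its source label and the remodeling control was wild type, which cannot be told apart from the setting here.

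Genes of the pathway outside the set showed the remodeling difference in part. Of 14 other biosynthesis genes measured, 3 were past 2-fold lower on the deficient remodeling array and 0 higher: P3h3 (-2.42) and P3h1 (-1.34), of the prolyl 3-hydroxylase family, and Fkbp7 (-1.02), a prolyl isomerase of the endoplasmic reticulum. Fkbp7 read 7.942 on both tumor arrays and the deficient remodeling array, and 8.959 on the expressing remodeling array. Colgalt1, which adds galactose to hydroxylysine (0.21), and Ppib, a cyclophilin that aids collagen folding (-0.21), were bright and near level. Of 13 fibril-associated genes, 8 were lower, led by Thbs2 (-3.02), Ogn (-2.82), Dcn (-2.61) and Tnxb (-2.37), and Fn1, which encodes fibronectin, differed by 0.01. This list shares Dcn, Lum and Fbln1 with the fibroblast markers above, and the breakdown genes below share Fap with them. Of 13 other collagen chains, Col6a3 was lower and the rest were mostly near background, with 1 bright of 13.

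Among 12 genes of collagen uptake and breakdown, 4 were past 2-fold lower on the deficient remodeling array: the gelatinase Mmp2 (-2.71), the fibroblast protease Fap (-2.61), the collagen-cleaving cathepsin Ctsk (-1.97) and the membrane metalloproteinase Mmp14 (-1.48). Mrc1, the mannose receptor by which macrophages take up collagen, was bright and level, at 12.59 and 12.71 on the deficient and expressing tumor arrays and 12.85 and 12.77 on the deficient and expressing remodeling arrays. Mmp9 (0.52) and Mmp13 (0.50) lay above 0. Of this list, Ctsk alone passed 2-fold in tumor macrophages (-1.02). Collagen receptors had 0 of 6 past 2-fold in either Ets2 comparison. Lair1, an inhibitory collagen receptor of leukocytes, was past 2-fold higher in tumor with both labels, at 8.46 in tumor and 7.41 in remodeling on the deficient arrays (1.05), and 8.01 and 6.89 on the expressing ones (1.11). Ddr1, a collagen-binding tyrosine kinase common in epithelium, was higher on the expressing arrays (1.73).

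The remaining members gave no signal to compare. Col7a1, which forms anchoring fibrils under epithelium, lay between 4.13 and 4.36, and Col17a1, a hemidesmosome component, between 3.94 and 4.17. Col8a1, a network collagen of vessels, Col10a1, of hypertrophic cartilage, and Col13a1, a transmembrane collagen, stayed between 4.06 and 4.69 in the probe sets used. Col12a1 lay between 4.00 and 4.27 and P4ha2 between 3.96 and 4.56. Nothing about the expression of these genes can be read from values so close to background.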

How the data were processed

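Expression was measured on 4 Affymetrix arrays, 1 per group, from RNA amplified as cDNA and labelled with biotin, per the labels' protocols. The authors deposited log2 expression values. GCOS and RMA are named, per the submitters' processing notes, and their versions, roles and the normalization are not given in the sources used here. Of the 22690 probe sets, 2937 (12.9%) had the same value to 3 decimals on at least 2 arrays, 5 of them among the 58 used here. Some differences are therefore exactly 0.

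Values were used as deposited, with Python 3.11.15, pandas 2.3.3 and numpy 2.4.6. The 20380 probe sets naming 1 gene were reduced to 12393 genes by the highest mean over the arrays, and Entrez identifiers updated 0 symbols. Differences were called at 2-fold where the brighter array reached its median. With 1 array per group there was no test, and the number of arrays limits the precision. Every gene of the set is named, and of the other lists up to 4 genes past 2-fold per comparison. Further names were chosen after values were seen. The members, lists and rules were chosen with earlier results of these data known.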

Additional observations from a re-analysis of the deposited data

Results flagged for a closer look

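The median Ets2 difference was small in tumor and large in remodeling macrophages. Over the 35 genes it was 0.15 in tumor and -1.40 in remodeling macrophages, or 0.07 and -1.21 after centring each array on its median. The median of the gene-wise difference between settings was 1.93 log2. The tumor minus remodeling difference was past 2-fold in opposite directions on the deficient and the expressing arrays for 4 of the 35 genes. The gap between these differences was 2.67 for Col1a2, 2.60 for Col5a1, 3.44 for Loxl1 and 3.78 for Serpinh1. The share of all genes with such opposite calls is not given here. A further Col5a1 probe set differed by 0 on the deficient and by -1.98 on the expressing arrays. With 1 array per group, whether the settings differ was not tested.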

How the results depend on the processing

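Of the 8 alternatives, 3 change the call rule alone and leave every difference as it was. Under the other 5, the 45 single-gene differences past 2-fold kept their direction in all 225 recomputed values. These 45 were picked for being at least 1 log2 in the same data, and most of these settings move a difference by less. The kept direction was therefore largely fixed in advance. Under all 8 alternatives, 43 of 360 calls were lost. Centring on array medians shifted the median of all genes to 0.23 in the remodeling Ets2 comparison and to -0.31 between tumor and remodeling on the deficient arrays, where the median of the 35 genes moved to 0.77. With the filter at the 75th percentile, counts past 2-fold were 7 (remodeling Ets2 comparison), 1 (tumor Ets2 comparison), 1 (tumor minus remodeling, expressing) and 5 (deficient). At 1.5-fold, 8 genes were counted in the tumor Ets2 comparison and 16 between tumor and remodeling on the expressing arrays. With the median over the probe sets of a gene, 1 was past 2-fold higher in the tumor Ets2 comparison, against 1.03% of all genes. A stricter filter and a smaller fold change counts by construction. Setting dim values to the 25th percentile was chosen after the data were seen. No paired analysis was possible because each group has 1 array. Without replicates no array could be left out.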
